A study of Mus musculus with 32 samples.

Results

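Border-associated macrophages are represented here by 8 marker genes, taken by symbol from the 55385 gene rows of the series: the receptors Mrc1, Cd163, Lyve1 and Folr2, the endocytic adaptor Dab2, and the enzymes and chemokine F13a1, Cbr2 and Pf4. Each symbol matched 1 gene, and all 8 passed the filter on low counts. Border-associated macrophages are the resident macrophages of the brain's interfaces, in the meninges, around blood vessels and in the choroid plexus, whereas microglia lie in the tissue itself. They sample blood and cerebrospinal fluid, and they carry receptors for sugars, hemoglobin, hyaluronan and folate that microglia at rest hardly express. Several of these genes are also made by macrophages that derive from blood monocytes, and Pf4 is best known from platelets.

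The series measured polyadenylated RNA of EYFP+ cells sorted from the cortex of adult C57BL/6 mice of both sexes, heterozygous for Cx3cr1CreER and 8 to 10 weeks old at the start. All groups, the non-injured ones included, had tamoxifen at 180 mg/kg for 5 days before a cortical stab wound. Injured libraries came from the wound on days 1, 4, 7 and 14, and non-injured libraries from the matching site of the other hemisphere. The recombinase and the label are driven by Cx3cr1, a gene that border-associated macrophages and monocytes also express, so the sort alone does not keep these cells out. The files give 2 columns for each of the 16 day, sex and side groups. The genes of such a pair of columns differed by a median chi-square of 0.475 to 0.639, where counting noise gives 0.455, so they were summed to 16 libraries and counted once. No label ties a sample to an animal. For the injury effects, the p-values measure how far the female and male pairs of a day differ in their change. That spread may be technical or go with sex, and these cannot be told apart. Each library held between 20863982 and 55378788 counts over 14737 to 40975 detected genes. The non-injured male library of day 4 stood apart, with 25.7% of its counts from mitochondrial genes. The injured and non-injured female libraries of day 14 had the fewest detected genes, 14737 and 14777, at 35794953 and 33306008 counts. The male ones of that day had 33925 and 29450 genes, at 20863982 and 21874355 counts. Levels are CPM (counts scaled to 1000000 per library with TMM library sizes). In such bulk libraries, fewer cells of a type and less RNA per cell cannot be told apart.

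As a mean over the 4 days, 4 of the 8 markers rose at the wound: Folr2, Dab2, Pf4 and F13a1. The classical surface markers Mrc1, Cd163 and Lyve1, and the reductase gene Cbr2, did not pass the test. Over all 28597 genes tested by edgeR's quasi-likelihood test, 7.76% were called higher and 7.96% lower at a Benjamini-Hochberg adjusted p under 0.05. The median log2 change was 1.262 over the 8 markers and -0.32 over all genes. Together the 8 markers summed to between 249 and 2104.5 CPM (median 1145) in the 8 injured libraries, against between 23.8 and 835 CPM (median 310) in the 8 non-injured ones. The sum was higher at the wound in 7 of 8 pairs of libraries, all but the female pair of day 14. Without the male pair of day 4, the lowest non-injured sum was 46.0 CPM. At the wound the largest parts of the sum were Dab2 and F13a1, with means of 538 and 282 CPM. Cd163 and Lyve1 averaged 8.38 and 3.42 CPM there. A higher sum is thus not a rise of each marker. In the female pair of day 1, Dab2 had 1260 CPM against 151 CPM, and Folr2 and Pf4 were also higher at the wound. Mrc1, Cd163, Lyve1, F13a1 and Cbr2 were lower there.

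The sequences just before the start sites of the 4 markers that rose are shown because these genes rose in the mean over days. Each is the 250 bases before the start nearest to the annotated gene start, 5′ to 3′ on the gene's strand, from RefSeq in build GRCm38.p6. Capitals mark matches, on either strand, to letters GGAAGT of the PU.1 motif and TGCTGA of the MAF motif. These are factors of macrophage identity.
Folr2, chr7:101857191-101857440, minus strand: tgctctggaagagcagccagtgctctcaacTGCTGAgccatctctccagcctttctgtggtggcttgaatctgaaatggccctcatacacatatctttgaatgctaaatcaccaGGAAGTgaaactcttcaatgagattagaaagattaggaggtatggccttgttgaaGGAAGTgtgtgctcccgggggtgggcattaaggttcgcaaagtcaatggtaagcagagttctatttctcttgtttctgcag
Dab2, chr15:6299539-6299788, plus strand: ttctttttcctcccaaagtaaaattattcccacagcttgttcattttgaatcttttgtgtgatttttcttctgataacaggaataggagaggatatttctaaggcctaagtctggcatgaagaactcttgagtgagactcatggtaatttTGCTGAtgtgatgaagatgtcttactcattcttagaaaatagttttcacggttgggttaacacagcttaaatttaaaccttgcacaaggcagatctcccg
Pf4, chr5:90772185-90772434, plus strand: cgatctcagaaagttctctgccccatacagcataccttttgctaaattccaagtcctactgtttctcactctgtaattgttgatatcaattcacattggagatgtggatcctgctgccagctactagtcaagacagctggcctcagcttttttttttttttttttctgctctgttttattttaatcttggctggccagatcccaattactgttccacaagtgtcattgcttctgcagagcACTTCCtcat
F13a1, chr13:37050245-37050494, minus strand: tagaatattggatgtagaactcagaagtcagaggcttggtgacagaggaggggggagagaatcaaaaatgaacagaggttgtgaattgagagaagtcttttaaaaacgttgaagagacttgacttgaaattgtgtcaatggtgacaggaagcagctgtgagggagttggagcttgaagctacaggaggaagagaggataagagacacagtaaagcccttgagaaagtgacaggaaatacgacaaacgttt
GGAAGT stood in 3 of the 7 markers with a RefSeq start, Folr2, Pf4 and Mrc1, and in 19.7% of all 32851 windows of the same length. TGCTGA stood in 2 of 7, Folr2 and Dab2, and in 16.1% of all windows. The AP-1 letters TGANTCA stood in 0 of 7, against 6.75% of all windows. None of these motifs overlap in the windows shown. A match is a description of the letters only.

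Folr2 encodes folate receptor beta, a membrane-anchored receptor of macrophages, and lies on chromosome 7, 101839988 to 101857194, minus strand, in GRCm38. At day 1 it had 12.5 and 1.55 CPM in the female and male injured libraries, against 9.99 and 1.21 CPM in the female and male non-injured ones. At day 4 the injured libraries had 77.9 and 53.2 CPM, against 10.35 and 1.36 CPM. The libraries of day 1 overlapped between sides, and those of day 4 were far apart. At day 7 the injured libraries had 107 and 124 CPM, against 6.67 and 4.96 CPM in the non-injured ones. At day 14 they still had 42.7 and 16.6 CPM, against 15.1 and 0.900 CPM. All 8 pairs had more Folr2 at the wound, and from day 4 on both injured libraries lay above both non-injured ones. The fitted log2 changes were 0.34 ± 0.75 (SE) at day 1, 3.80 ± 0.72 at day 4, 4.33 ± 0.71 at day 7 and 2.49 ± 0.71 at day 14. Folr2 was the 1 marker of 8 called at day 4 (adjusted p = 0.0368 by edgeR), when 1.52% of genes were called higher, and at day 7 (adjusted p = 0.0476), when 0.318% were. Its mean over days was 2.74 ± 0.36 (adjusted p = 0.00147 by edgeR). Both single-day calls were lost without the replicate block (log2 4.05, adjusted p = 0.150 at day 4, and log2 4.52, adjusted p = 0.385 at day 7). They were also lost with median-ratio factors (log2 3.51 and 3.96, adjusted p = 0.0507 and 0.0592) and with no low-count filter (log2 3.78 and 4.47, adjusted p = 0.0644 and 0.0633). The day 4 call was also lost without any 1 pair of days 1 or 7 or the male pair of day 4 (log2 2.91 to 3.87). The day 7 call was lost without any 1 pair of days 1, 7 or 14 (log2 4.01 to 4.65). Over all genes, 584 and 107 were called in either direction on days 4 and 7, against 19 and 0 without the block. The counts were 210 and 16 with no low-count filter and 626 and 91 with median-ratio factors. Calls over all genes also moved with the pair left out, as given in the closing section. An uncharacterised gene on the opposite strand, Gm10602, overlaps Folr2 exons in a library type that keeps no strand, and reached at most 4.53 CPM.

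Dab2 encodes a clathrin adaptor that gathers cell-surface receptors for endocytosis, and lies on chromosome 15, 6299788 to 6440712, plus strand. It was the earliest of the markers to be called. At day 1 it had 1260 and 721 CPM in the female and male injured libraries, against 151 and 20.5 CPM in the non-injured ones. At day 4 it had 683 and 244 CPM at the wound, against 188 and 8.10 CPM. Both injured libraries lay above both non-injured ones on each of these days. At day 7 the values were 764 and 389 CPM, against 128 and 74.1 CPM. At day 14 they were 96.6 and 150 CPM, against 75.3 and 55.9 CPM. Dab2 was thus higher in 8 of 8 pairs, and the injured libraries stood above the non-injured ones at all 4 days. The fitted log2 change was 4.08 ± 0.77 (SE) at day 1, the 1 call among the 8 markers on that day (adjusted p = 0.0481 by edgeR), when 0.472% of genes were called higher. It was 3.28 ± 0.78 at day 4, 2.49 ± 0.70 at day 7 and 0.90 ± 0.69 at day 14, none of them called. The mean over days was 2.68 ± 0.37 (adjusted p = 0.00179 by edgeR). The day 1 call was lost without the replicate block (log2 3.91, adjusted p = 0.184) and without any 1 pair of days 1, 7 or 14 (log2 3.005 to 5.14, adjusted p = 0.0680 to 0.579). It was also lost with median-ratio factors (log2 4.15, adjusted p = 0.0505) and with no low-count filter (log2 4.16, adjusted p = 0.0871). Over all genes, 301 were called at day 1, against 12 without the block, 101 with no low-count filter and 538 with median-ratio factors. The overlapping opposite-strand gene Gm18888 reached at most 0.0583 CPM.

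**Figure D1:**
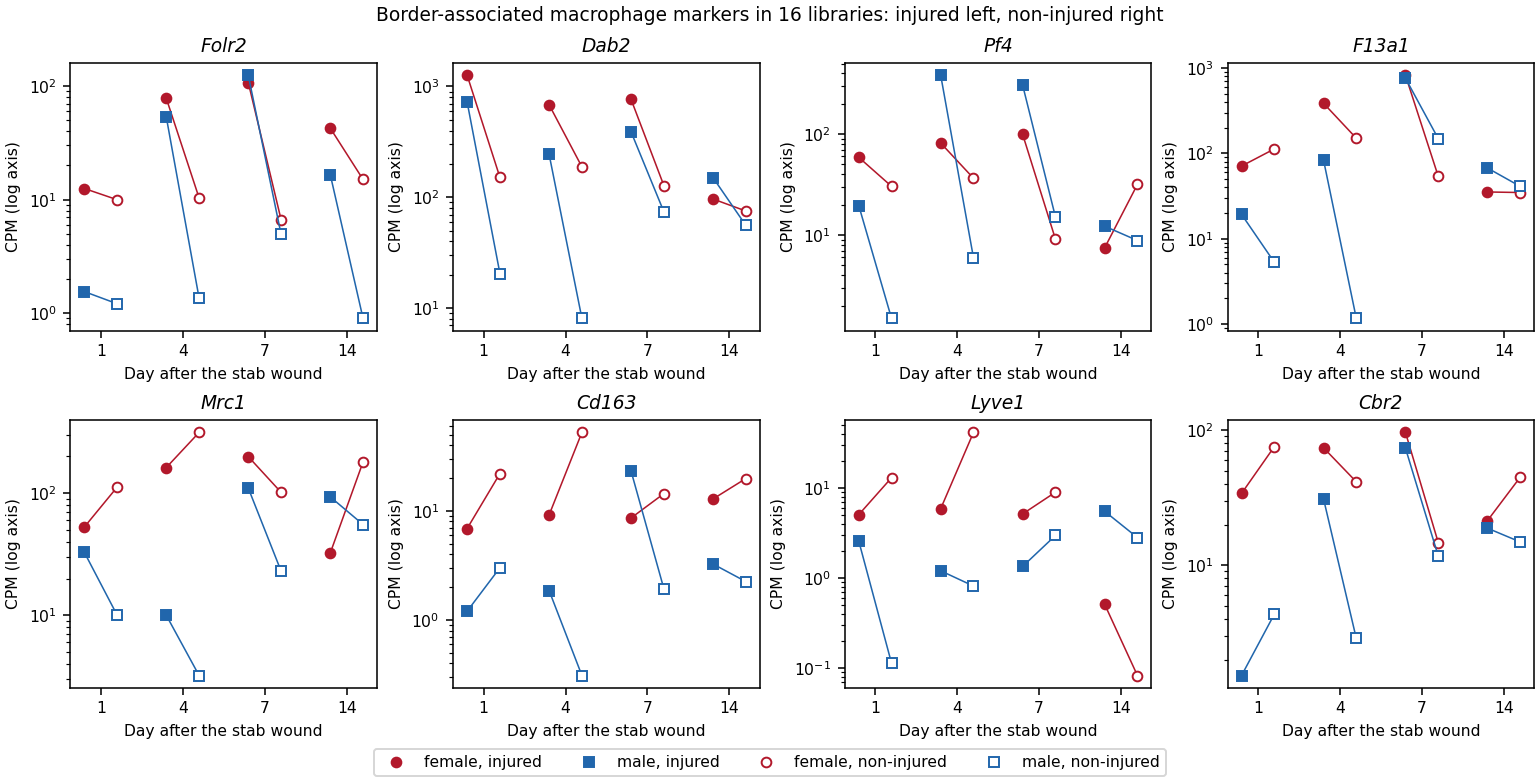
CPM on a log axis of the 8 markers in each library, by day after the stab wound, with the injured library (filled) left of the non-injured one (open) and a line joining each pair, females in red circles and males in blue squares. Folr2 and Dab2 are higher at the wound in 8 of 8 pairs, while Mrc1, Cd163 and Lyve1 are higher in 5, 3 and 4 of 8.

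Pf4 encodes platelet factor 4 (CXCL4), a chemokine of platelets and of some tissue macrophages, and lies on chromosome 5, 90772435 to 90773383, plus strand. At day 1 it had 58.8 and 19.6 CPM in the female and male injured libraries, against 30.4 and 1.49 CPM in the non-injured ones. At day 4 the male injured library held the highest value of all, 382 CPM, and the female one 81.6 CPM, against 5.93 CPM in the male and 36.5 CPM in the female non-injured library. At day 7 the female and male values were 99.1 and 304 CPM, against 9.09 and 15.1 CPM. On days 4 and 7 the sides did not overlap, and the male injured libraries were above the female ones. At day 14 Pf4 had 7.46 and 12.2 CPM at the wound, against 31.7 and 8.82 CPM, so the female pair was reversed. The mean over days was 2.14 ± 0.57 (SE; adjusted p = 0.0334 by edgeR), with 7 of 8 pairs higher at the wound. No single day was called, the largest log2 change being 3.90 ± 1.11 at day 7 (adjusted p = 0.132). The call was lost without any 1 pair of days 1, 7 or 14 (log2 1.87 to 2.57, adjusted p = 0.0577 to 0.134) and kept without either pair of day 4 (log2 2.73 without the female and 1.53 without the male pair). It was also lost with median-ratio factors (log2 1.995, adjusted p = 0.0595) and with limma (log2 1.67, adjusted p = 0.0556).

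F13a1 encodes the catalytic subunit of coagulation factor XIII, a transglutaminase that crosslinks fibrin and fibronectin and is abundant in macrophages and monocytes; it lies on chromosome 13, 36867178 to 37050244, minus strand. At day 1 it had 71.2 and 19.3 CPM in the female and male injured libraries, against 113 and 5.30 CPM in the non-injured ones. At day 4 it had 388 and 84.0 CPM, against 151 and 1.16 CPM. These days overlapped between sides, with the female library above the male one on each side. At day 7 the injured libraries reached 826 and 762 CPM, against 53.9 and 149 CPM. At day 14 they had 35.4 and 67.5 CPM, against 34.8 and 41.1 CPM. Day 7 was the 1 day on which both injured libraries lay above both non-injured ones. The log2 changes were 3.15 ± 1.06 (SE) at day 4 and 3.14 ± 0.94 at day 7, with adjusted p = 0.187 and 0.146 by edgeR. The mean over days, 1.79 ± 0.48, was called (adjusted p = 0.0334 by edgeR), with 7 of 8 pairs higher at the wound. This call was lost without the replicate block (log2 1.27, adjusted p = 0.276) and without any 1 pair of days 1, 7 or 14 (log2 1.52 to 2.17, adjusted p = 0.0761 to 0.145). It was kept without either pair of day 4, at log2 2.50 without the female and 1.31 without the male pair. It was also lost with median-ratio factors (log2 1.64, adjusted p = 0.0575), with no low-count filter (log2 1.86, adjusted p = 0.0506) and with limma (log2 1.16, adjusted p = 0.0606). The overlapping opposite-strand gene Gm30489 reached at most 0.102 CPM.

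Cbr2, a carbonyl reductase gene on chromosome 11, 120729489 to 120732114, minus strand, was not called by edgeR on any day or in the mean. It had 34.0 and 1.53 CPM at day 1 in the female and male injured libraries, against 75.4 and 4.34 CPM in the non-injured ones, and 74.0 and 31.0 CPM at day 4, against 41.4 and 2.87 CPM. At day 7 it had 96.0 and 73.4 CPM, against 14.7 and 11.7 CPM, and at day 14 it had 21.4 and 18.8 CPM, against 44.8 and 14.9 CPM. Both day 1 pairs were lower at the wound and both pairs of days 4 and 7 were higher. The log2 changes were -1.28 ± 0.64 (SE) at day 1, 1.92 ± 0.64 at day 4 and 2.68 ± 0.61 at day 7 (adjusted p = 0.374, 0.184 and 0.0885 by edgeR). The mean over days was 0.73 ± 0.31 (adjusted p = 0.150). The mean was called (log2 1.08, adjusted p = 0.0262) when the female pair of day 4 was left out, with 6.89% of genes called higher. Day 7 was called without the female (log2 2.40, adjusted p = 0.0372) or the male pair of day 4 (log2 2.68, adjusted p = 0.0142), with 0.885% and 2.10% of genes called higher. It was also called by DESeq2 (log2 2.31, adjusted p = 0.0096). DESeq2 also called day 4 (log2 1.84, adjusted p = 0.046).

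**Figure D2:**
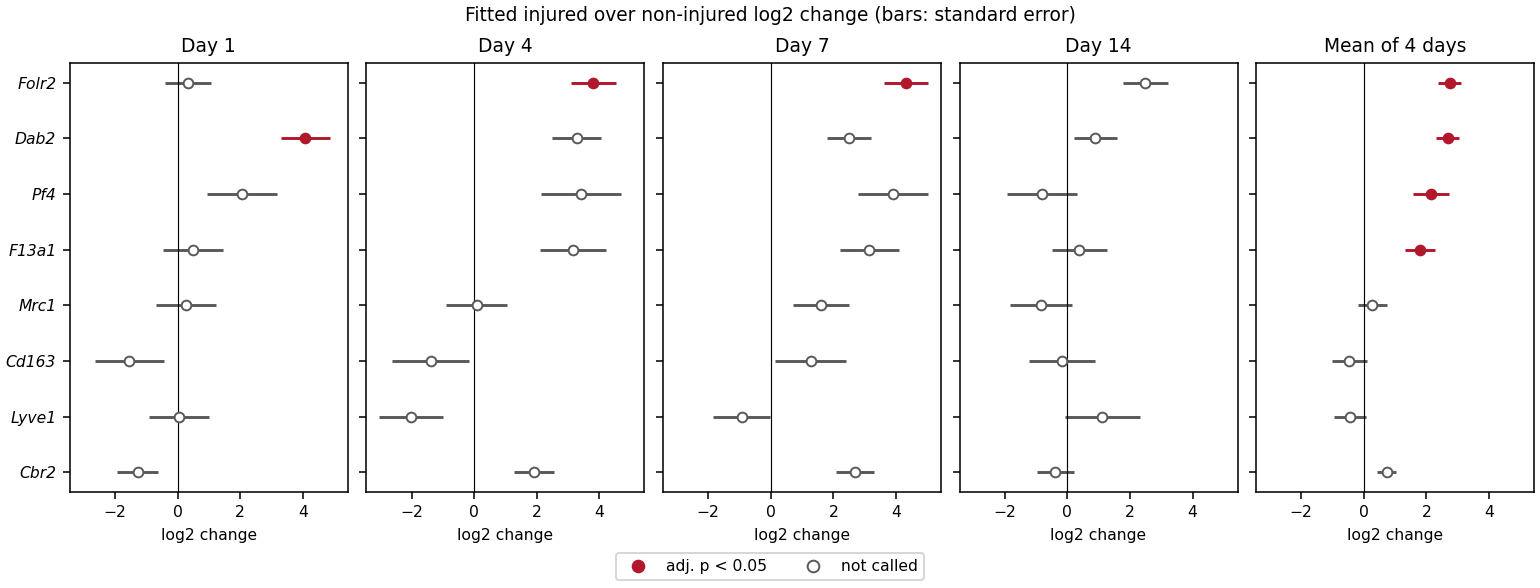
Fitted log2 change of each marker, injured over non-injured, at each day and as the mean of 4 days, with standard error bars; red points have an adjusted p under 0.05 by edgeR. Folr2, Dab2, Pf4 and F13a1 are called in the mean of days, at 2.74, 2.68, 2.14 and 1.79.

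Mrc1 encodes the macrophage mannose receptor (CD206), an endocytic lectin, and lies on chromosome 2, 14229392 to 14332057, plus strand. It ranged from 9.99 to 199 CPM (median 73.0) in the 8 injured libraries, against 3.22 to 314 CPM (median 78.4) in the 8 non-injured ones. The sides overlapped over most of their range, with a log2 change of 0.27 ± 0.48 (SE; adjusted p = 0.839 by edgeR) in the mean over days. All 4 male pairs were higher at the wound, with 32.7, 9.99, 110 and 93.1 CPM on days 1, 4, 7 and 14, against 10.03, 3.22, 23.0 and 55.3 CPM. The female injured libraries had 52.8, 162, 199 and 32.3 CPM on those days, against 112, 314, 101 and 180 CPM. Among females, then, day 7 was the 1 day with more Mrc1 at the wound.

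Cd163 encodes the scavenger receptor for hemoglobin-haptoglobin complexes, and lies on chromosome 6, 124304656 to 124330527, plus strand. It ranged from 1.21 to 23.1 CPM (median 7.76) at the wound, against 0.310 to 52.4 CPM (median 8.71) on the non-injured side. The 4 female pairs were lower at the wound, at 6.90, 9.20, 8.62 and 12.9 CPM on days 1, 4, 7 and 14, against 22.0, 52.4, 14.4 and 19.8 CPM. The male pairs were higher at the wound on days 4, 7 and 14, when the injured libraries had 1.86, 23.1 and 3.26 CPM, against 0.310, 1.93 and 2.25 CPM. At day 1 the male values were 1.21 CPM at the wound and 3.01 CPM on the non-injured side. The mean log2 change over days was -0.46 ± 0.56 (SE; adjusted p = 0.699 by edgeR).

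Lyve1 encodes a hyaluronan receptor shared by lymphatic endothelium and some border-associated macrophages, and lies on chromosome 7, 110850607 to 110863239, minus strand. It was the scarcest marker by CPM, from 0.510 to 5.92 CPM (median 3.83) at the wound, against 0.0822 to 41.8 CPM (median 2.90) on the non-injured side. The top value was that of the female non-injured library of day 4, with 2041 counts, which also held the top Mrc1 and Cd163 values. Its lowest value rested on 2 counts, in the female non-injured library of day 14. The sides overlapped on all 4 days. The mean log2 change over days was -0.44 ± 0.52 (SE; adjusted p = 0.675 by edgeR), with 4 of 8 pairs higher at the wound.

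By day, the markers on which both injured libraries lay above both non-injured ones numbered 1 of 8 at day 1 (Dab2), 3 at day 4, 6 at day 7 and 2 at day 14. Of all genes tested, 12.3%, 15.0%, 18.0% and 7.15% did so on days 1, 4, 7 and 14. The 6 markers of day 7 were Folr2, Dab2, Pf4, F13a1, Cbr2 and Mrc1. The median log2 change of the 8 markers was 0.30 at day 1, 2.53 at day 4, 2.58 at day 7 and 0.10 at day 14, beside -0.05, -0.20, -0.84 and 0.00 over all genes. At day 14 no marker was called, against 0.0455% of genes called higher. At an unadjusted p under 0.05 by edgeR, 1 of the 8 markers, Folr2, was higher at day 14, beside 8.23% of genes, a share near the background. DESeq2 called 5 markers higher at day 4 and at day 7 (Folr2, Dab2, Pf4, F13a1 and Cbr2), against 3.51% and 2.80% of genes. Whether the change differed between days passed the test for 0 of 8 markers and for 0% of genes by edgeR. At an unadjusted p under 0.05, Cbr2 and Folr2 differed between days, as did 6.36% of genes, and DESeq2 called Cbr2 (adjusted p = 0.0349), with 0.787% of genes called. On the non-injured side the 4 days differed for 0 of 8 markers, by adjusted or unadjusted p, and the call was made for 0% of genes, with 1.43% at an unadjusted p under 0.05 by edgeR.

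The authors' deposited tables, which compare the sides within each day over both sexes, called 1 marker higher at day 1, 3 at day 4, 5 at day 7 and 0 at day 14, and none lower. Of the 55385 genes listed in the authors' deposited tables, 2.88%, 2.42%, 1.97% and 3.34% were called higher on those days, and 3.27%, 4.26%, 6.44% and 3.67% lower. In the authors' deposited table of day 7, the called markers were Folr2 (log2 3.90), Pf4 (3.72), F13a1 (2.59), Cbr2 (2.24) and Dab2 (2.04). In the authors' deposited table of day 4 they were Pf4 (3.38), Folr2 (3.23) and Dab2 (1.93), and in that of day 1 Dab2 (3.59). The headers do not state whether the 2 columns of a group were taken as separate replicates there.

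On the non-injured side 4 of the 8 markers did not overlap between the sexes, and none was called by edgeR. There Mrc1 had 101 to 314 CPM in the 4 female libraries, against 3.22 to 55.3 CPM in the 4 male ones. Cd163 had 14.4 to 52.4 CPM in the female libraries, against 0.310 to 3.01 CPM in the male ones. Folr2 had 6.67 to 15.1 CPM in the female libraries, against 0.900 to 4.96 CPM in the male ones. Dab2 had 75.3 to 188 CPM in the female libraries, against 8.10 to 74.1 CPM in the male ones, so its sexes nearly touched. These 4 markers were higher in each female library than in any male one, which held for 1.64% of all 24622 genes tested there. Lyve1, F13a1, Cbr2 and Pf4 overlapped. At the wound 0 of 8 markers had all 4 female libraries above all 4 male ones, against 2.06% of genes, and none reached an unadjusted p under 0.05 between the sexes, beside 8.83% of genes in either direction. This comparison was added after the levels had been seen. By edgeR, with day and sex as terms, the log2 difference, female over male, on the non-injured side was 3.28 ± 0.84 (SE) for Mrc1, 3.71 ± 0.85 for Cd163 and 2.59 ± 0.87 for Folr2. All 8 markers were positive and 6 had an unadjusted p under 0.05, beside 0.983% of genes higher in females at that p. None was called (adjusted p = 0.391 for Mrc1, 0.362 for Cd163 and 0.433 for Folr2 by edgeR), against 0.0284% of genes called in either direction. DESeq2 on the same counts called Mrc1, Cd163, Folr2 and Cbr2, at adjusted p = 0.00245, 0.000771, 0.0233 and 0.0241, against 0.313% of genes called higher in females. With no low-count filter, edgeR called Mrc1 (0.0179) and Cd163 (0.013), against 0.0327% of genes. Without the male library of day 4, Mrc1, Cd163 and Folr2 differed by 2.34, 2.88 and 2.30 and were not called. The 14 microglia markers summed higher in each female non-injured library (44135 to 76722 CPM) than in any male one (12939 to 43781 CPM). In the male non-injured libraries, neuron marker sums were 89.1, 2785, 1031 and 799 CPM on days 1, 4, 7 and 14. Female non-injured libraries had 46.7 to 325 CPM. The part of these differences in the levels of the 8 markers was not tested. With 1 library for each sex, day and side, sex and anything else that differs between those libraries cannot be told apart.

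Whether the injury change differed between the sexes passed the test for 0 of 8 markers. This comparison uses the same non-injured libraries. The female mean change minus the male one was negative for 8 of 8 markers, with a median of -1.71 on the log2 scale, beside -0.10 over all genes. It was -2.46 ± 0.41 (SE) for Mrc1, -2.75 ± 0.58 for Pf4 and -2.52 ± 0.79 for Cd163. At an unadjusted p under 0.05 by edgeR, 5 of 8 markers were negative, beside 1.55% of genes. None was called, with adjusted p = 0.154 for Mrc1 and 0.244 for Pf4, and 0% of genes were called. DESeq2 called Mrc1 (adjusted p = 1.21e-07) and Pf4 (0.000305), against 0.0944% of genes called lower. Without the male pair of day 4, the difference was -2.42 for Mrc1, -1.93 for Pf4 and -2.20 for Cd163, none of them called. Over the alternatives, the Mrc1 difference ran from -2.89 to -2.22, and its adjusted p from 1.21e-07 to 1.

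Per transcript length, the highest 2 and the lowest 2 markers were the same on both sides. By median TPM (transcript abundance scaled to a fixed total) over 8 libraries, at the wound, Pf4 stood highest at 200 TPM, then Dab2 at 175, Folr2 at 53.6, Cbr2 at 39.7, F13a1 at 24.6, Mrc1 at 15.3, Lyve1 at 2.13 and Cd163 at 1.89 TPM. On the non-injured side Pf4 had 61.9 TPM, Dab2 43.3, Cbr2 33.7, F13a1 25.7, Mrc1 24.0, Folr2 14.3, Cd163 3.55 and Lyve1 1.79 TPM. Folr2 came after Dab2 at the wound and after Mrc1 on the non-injured side. The ranges of neighbours in either order overlapped, at the wound for instance 24.2 to 702 TPM for Dab2 and 4.29 to 130 TPM for Folr2. The ratio of Folr2 to Mrc1 in TPM was higher at the wound in 7 of 8 pairs, with the male pair of day 1 the exception, at 0.326 at the wound and 0.843 on the non-injured side. At day 7 it was 3.69 and 6.73 in the female and male injured libraries, against 0.460 and 1.36 in the non-injured ones.

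The markers did not vary as 1 block. Over the 16 libraries, Pearson's r between 2 markers in log2(CPM + 1) ran from 0.07 to 0.82 with a median of 0.57 over 28 pairs of markers. It was highest for F13a1 with Cbr2 (0.82), Mrc1 with Cd163 (0.80) and Cbr2 with Folr2 (0.80), and lowest for Lyve1 with Folr2 (0.07). Over the 8 log2 ratios, injured over non-injured, Cbr2 and Folr2 had r = 0.94 (Spearman's rho 0.93) and F13a1 and Cbr2 had r = 0.86 (rho 0.86), while Folr2 and Dab2 had r = -0.08 (rho -0.07) and Lyve1 had r = -0.25 with Cbr2. These points share libraries and their depth, and the values are descriptions. Of the 8815 other protein-coding genes that averaged 10 CPM or more, those most like the mean of the 8 scaled markers over 16 libraries were Ctsa (r = 0.87, rho 0.84) and Tpp1 (r = 0.87, rho 0.91). Among the next were Atp6ap1, Cog4, Wdr92, Arhgap19, Rsu1, Il10rb and Cmtm3, at r = 0.83 to 0.85. Ctsa and Tpp1 encode a lysosomal carboxypeptidase and a lysosomal tripeptidyl peptidase, Atp6ap1 an accessory subunit of the lysosomal proton pump, and Il10rb a subunit of the interleukin 10 receptor.

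Other genes used as markers of border-associated macrophages went both ways. Of 24, 8 rose, 7 fell and 9 did not pass the test in the mean over days, with a median log2 change of -0.14. Those with the largest changes were Wfdc17 (log2 4.29 ± 0.50, SE), Ms4a7 (3.77 ± 0.55) and Cd36 (3.35 ± 0.44) among the rises and Cd209b (-3.49 ± 0.85) among the falls, with adjusted p = 0.000886, 0.00228, 0.0015 and 0.0363 by edgeR. Ms4a7, a membrane protein of border and monocyte-derived macrophages, had 13.6 to 2180 CPM at the wound, against 0.479 to 376 CPM on the non-injured side. Cd36, a scavenger receptor for lipids, had 29.1 to 266 CPM, against 1.83 to 46.0 CPM. Cd209b, a C-type lectin, was low throughout, at 0 to 2.32 CPM at the wound, against 0 to 8.91 CPM. Ms4a7 and Wfdc17 had their top non-injured values, 376 and 308 CPM, in 1 library, the male one of day 7.

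**Figure D3:**
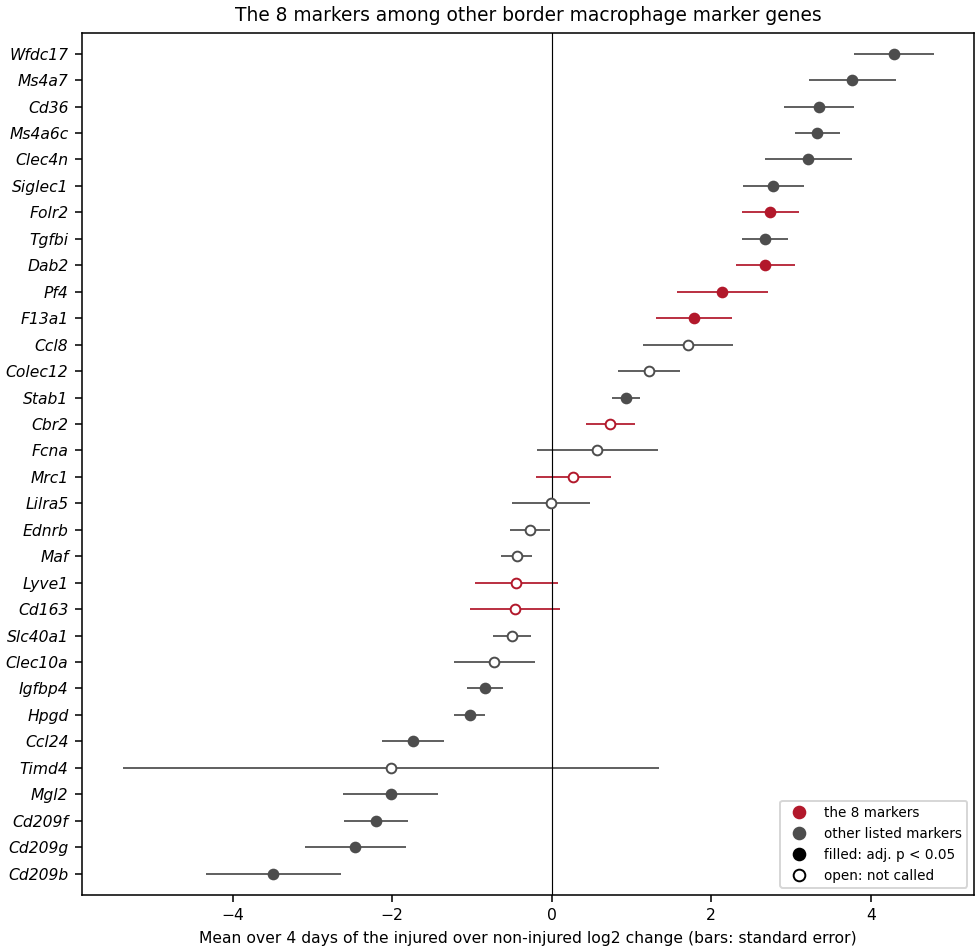
Mean over 4 days of the log2 change, injured over non-injured, with standard error bars, for the 8 markers (red) and 24 other listed border macrophage markers (grey), filled where the adjusted p is under 0.05 by edgeR. The 8 markers lie between Folr2 at 2.74 and Cd163 at -0.46, while the other genes run from Wfdc17 at 4.29 to Cd209b at -3.49.

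Among 29 genes of the same families or pathways, 11 rose, 5 fell and 13 did not pass the test, with a median log2 change of 0.49. The hyaluronan receptor gene Cd44 (log2 4.35 ± 0.44, SE), fibronectin, Fn1, which factor XIII crosslinks (4.30 ± 0.47), heme oxygenase, Hmox1, which breaks down heme taken up by CD163 (4.09 ± 0.19), and the platelet chemokine gene Ppbp (4.06 ± 0.96) had the largest changes. Their adjusted p-values were 0.000474, 0.00066, 7.13e-05 and 0.0189 by edgeR. Ppbp averaged 2.32 CPM at the wound and 0.118 CPM on the non-injured side, so the size of its change rests on few counts. Hmox1 had 67.1 to 3180 CPM at the wound, against 12.9 to 55.9 CPM. It was higher there in 8 of 8 pairs, while Cd163 was higher in 3 of 8. Among the 5 that fell, named here because they are few, were the folate transporter genes Slc19a1 and Slc46a1 and the adaptor genes Dab1 and Numb.

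Markers of other cells went in different directions. Of 12 monocyte markers, which share Fn1 and Hp with the previous list, 11 rose, with a median log2 change of 4.00, led by Ly6c2 (6.21), Chil3 (5.86), F10 (5.12) and Ifitm6 (4.65). On the non-injured side these leading genes had means of 0.959, 0.67, 1.24 and 0.314 CPM, so the sizes of their changes rest on few counts. The summed level of the 12 markers was 289 to 2529 CPM at the wound, against 4.31 to 180 CPM, with more at the wound in each of the 8 pairs. Their part in the rise of Folr2, Dab2, Pf4 and F13a1 was not tested. Of 14 microglia markers, 10 fell and 1 rose, with summed levels of 11010 to 44989 CPM at the wound, against 12939 to 76722 CPM. The male pair of day 4 was the 1 pair with more at the wound, and without it the lowest non-injured sum was 25530 CPM. For Pf4, 11 platelet markers summed to 6.64 to 12.7 CPM at the wound, against 8.35 to 25.02 CPM, with more at the wound in 1 pair of 8. Of these Ppbp rose and Gp9 fell. The defining Itga2b stood at no more than 1.16 CPM at the wound and 1.43 CPM on the non-injured side. Tubb1 stayed under 1 CPM in all libraries. Gp9 had the highest non-injured mean of the platelet list, 10.3 CPM against 2.35 CPM at the wound, so the sum leans on it. Ppbp averaged 0.118 CPM on the non-injured side and 2.32 CPM at the wound. The part of platelet RNA in the Pf4 levels was not tested. For Lyve1, the lymphatic endothelium genes summed to 28.4 to 123 CPM, against 18.2 to 54.6 CPM. Pdpn rose in that list (log2 3.07), Prox1 and Reln fell, Mmrn1 was at most 0.315 CPM at the wound and 1.56 CPM on the non-injured side, and Ccl21a was under 1 CPM in all libraries.

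**Figure D4:**
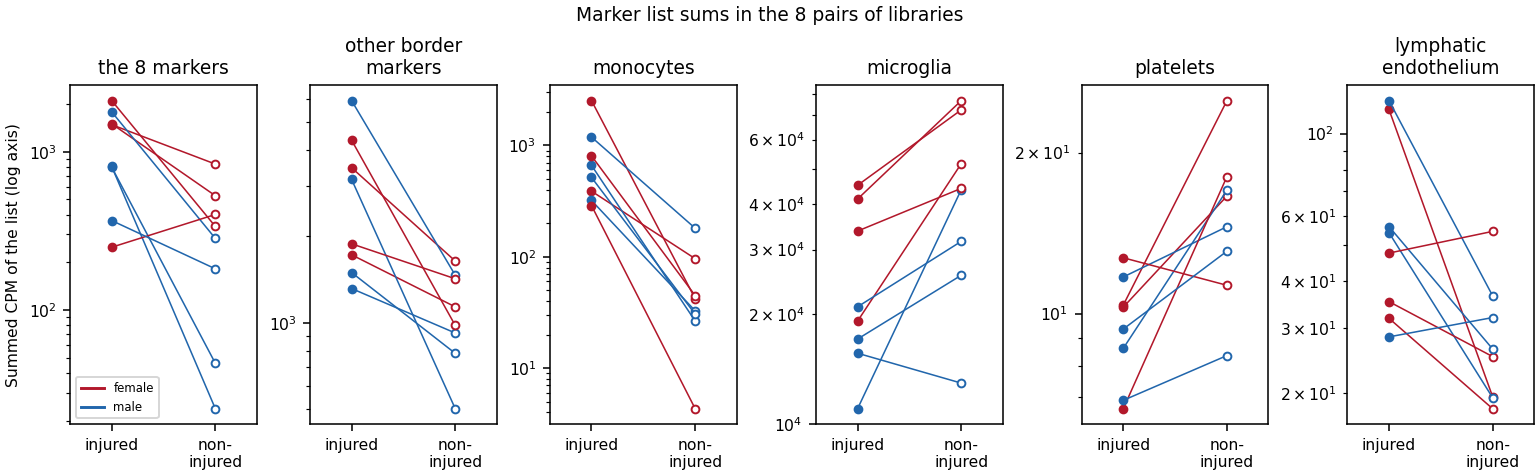
Summed CPM, on log axes that differ between panels, of the 8 markers and of 5 other marker lists in each pair of libraries, injured left and non-injured right, females in red and males in blue. Monocyte sums are higher at the wound in 8 of 8 pairs, the sum of the 8 markers in 7, platelet sums in 1 and microglia sums in 1.

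The remaining lists were read as counts over the mean of days. Of 10 neutrophil markers 7 rose, of 8 T and NK cell markers 2 rose, of 8 dendritic cell markers 1 rose, and of 5 tested B cell markers 1 rose and 1 fell. Of 8 blood endothelium markers 5 fell, of 6 mural cell markers 4 fell, and of 6 fibroblast markers none passed. Of 8 neuron markers 8 fell, of 8 astrocyte markers 2 fell and of 8 oligodendrocyte markers 3 fell. Neuron sums ran from 9.92 to 116 CPM at the wound, against 46.7 to 2785 CPM on the non-injured side. Both upper ends were the male pair of day 4, and without it they were 94.7 CPM at the wound and 1031 CPM on the non-injured side. Among the other non-injured libraries, the male ones of days 7 and 14 stood highest, at 1031 and 799 CPM. The injured libraries of those pairs had 48.2 and 94.7 CPM. Without the male pair of day 4, which holds the library rich in mitochondrial counts, the 4 called markers kept their calls in the mean over days. Ppbp stands in both the platelet list and the list of families and pathways.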

How the data were processed

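The 32 deposited columns (16 combinations of day, sex and side, 2 columns each) hold expected counts, the authors' estimated reads per gene, and a second table holds TPM by the authors, summing to 1000000 a column. Per the submitters' processing notes, Salmon 1.0.0 and DESeq2 1.26.0 were used; their genome build and annotation release: not given in the sources used here. Per the labels' protocols, SMART-Seq v4 and Nextera XT kits were used, which keep no strand. The authors' deposited comparison tables give, for each day, the log2 fold change of injured over non-injured samples with an adjusted p-value, per the file headers.

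Columns of a combination were summed and rounded to whole counts, 0 columns being left out. Gene positions and types came from GENCODE M21 (GRCm38), which holds 54487 of the 55385 IDs. R 4.3.3 with edgeR 4.0.16 (TMM, filterByExpr at a minimum count of 10, quasi-likelihood) fitted a mean for each of the 8 day-by-sex pairs and an injury effect for each of the 4 days (residual degrees of freedom 4, prior 5.32), and p-values were adjusted over all 28597 genes. The pairs are the injured and non-injured library of 1 day and sex; the labels tie no pair to an animal. Alternatives were median-ratio factors, DESeq2 1.42.0, no low-count filter, limma 3.58.1 on log2(TPM + 1), no replicate block and each pair left out.

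The 8 markers and all lists were chosen with earlier results of these data known. Every marker is named in every comparison; from other lists at most 4 called genes with the largest mean change are named with values, and exceptions are stated. Some listed genes are not reported here.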

Additional observations from a re-analysis of the deposited data

Results flagged for a closer look

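2 of 16 sets of 8 libraries (8 markers on 2 sides) held a library whose gap to the next exceeded Dixon's 95% limit. For normally distributed values chance gives about 1 in 20, but the CPM were used without a log, so that rate need not hold. Both were the female non-injured library of day 4, with 52.4 CPM of Cd163 and 41.8 CPM of Lyve1, so the 2 flags are not independent.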

How the results depend on the processing

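Folr2 and Dab2 were called in the mean over days under all 13 alternatives, with log2 changes of 2.14 to 3.09 and 2.07 to 3.07. Markers called in that mean numbered 2 with median-ratio factors and 2 with limma, and 2 to 5 with 1 pair left out, against 4. F13a1 (called in 3 of 13) ran from 1.16 to 2.50 and Pf4 (5 of 13) from 1.53 to 2.73, both higher at the wound throughout. Markers called at day 1 were 0 with median-ratio factors, 0 without the filter and 0 with no replicate block. At day 4 they were 0, 0 and 0 under the same settings and 5 with DESeq2, at day 7 likewise 0, 0 and 0 and 5 with DESeq2, and at day 14 DESeq2 called 1. Leaving out 1 pair gave 0 to 1 at day 1, 0 to 4 at day 4, 0 to 5 at day 7 and 0 at day 14. Over all genes, calls at days 1, 4, 7 and 14 and in the mean (301, 584, 107, 17 and 4496) became 12, 19, 0, 7 and 2097 with no replicate block and 2463, 1876, 2136, 2115 and 6444 with DESeq2. They became 101, 210, 16 and 2 at the 4 days without the filter, 565, 319, 179 and 115 with limma, and 538 at day 1 and 40 at day 14 with median-ratio factors. With 1 pair left out they ran from 0 to 845, 0 to 764, 0 to 720, 0 to 160 and 1758 to 4992. Genes differing between days were 225 with DESeq2, 1 with limma and 0 to 1 with 1 pair left out, and between sexes 152 with DESeq2. On the non-injured side DESeq2 called 8 genes between days and the unfiltered fit 27, with 0 to 27 when 1 library was left out. Female against male calls, 7 on the non-injured and 6 on the injured side, became 1163 and 145 with DESeq2, 277 and 21 without the filter and 2 and 2 with limma, with 0 to 11 and 2 to 25 when 1 library was left out. The cause was not tested. Lyve1 and Cd163 had the fewest counts in their lowest libraries, at 2 and 8, so those values rest on few counts. These were the female non-injured library of day 14 and the male one of day 4, with 33306008 and 30696983 counts in all.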
